A study of Mus musculus with 10 samples.

Results

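Replication-dependent histone genes encode the histones that package newly copied DNA, and they lie in clusters on a few chromosomes. The 67 members described here are all protein-coding mouse genes of GENCODE vM21 (mm10) whose symbols begin with Hist1h, Hist2h, Hist3h or Hist4h, out of 21938 protein-coding genes on chromosomes 1 to 19, X and Y. They were 6 H1, 18 H2A, 18 H2B, 12 H3 and 13 H4 genes. Each member was set against the study's list of accessible sites, 153682 of which lie on these chromosomes, and 46 sites came within 1 kb of a member's start site.

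The sites come from ATAC-seq, in which the Tn5 transposase cuts accessible DNA and the cut fragments are sequenced, on iMEF cells, which are immortalized mouse embryo fibroblasts. In all groups exon 4 of the endogenous Ash2l gene had been deleted and the cells lived on FKBP12F36V-tagged human ASH2L from a lentiviral construct, a subunit of the enzymes that methylate lysine 4 of histone H3. Without dTAG (the WT libraries, with ethanol as the control in the study's methods) there were 2 libraries, and there were 2 libraries at each of 30 min, 4 h, 8 h and 24 h of dTAG, a PROTAC that directs the fusion protein to degradation. The study's methods describe NG3, the line used, as an individual clone, so that the 10 libraries stand for 1 clone. The list pools all 10 libraries and holds only the position of each site. It therefore gives no level in any library, no depth and no change over time, and every result is a description of where sites were listed, with no test between groups.

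Most cells transcribe these genes in S phase, when large amounts of histone are needed. Their messages carry no poly(A) tail and end after a short stem-loop, which is bound by SLBP and cut by a machinery that is built around the U7 small nuclear RNP. NPAT, a substrate of cyclin E-CDK2, activates the clusters in nuclear histone locus bodies, and binding sites for NF-Y (CCAAT), OCT1 (octamer) and TBP (TATA box) are known features of the promoters.

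The stem-loop was used to check the labels of the members, because the rule for choosing them used only symbols. It was searched within 150 bp after the stop codon and found in 66 of 67 members, a median of 30.5 bases after the stop codon (range 21 to 58). The sequences below are the mm10 DNA, 5′ to 3′ on the strand of the gene, with the 6-base arms of the stem in capitals and the 4-base loop in lower case. The form listed first was present in 41 members of all types but H4, that with another loop in 9 members of the same types, and the H4 form in 8 members, all of them H4.

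H1, H2A, H2B and H3 form: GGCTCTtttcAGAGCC
Form with another loop: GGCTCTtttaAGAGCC
H4 form: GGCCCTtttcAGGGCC
Hist1h2an: GGCTCTtttcAGAGCT

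The form of Hist1h2an alone had a mismatch in the stem. Hist2h2be, an H2B variant gene known from olfactory neurons, was the member without a match in this window, and its site nevertheless spanned its whole coding sequence. Both genes were singled out after their values were seen.

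The regions between head-to-head genes are shown next, since many members share them, with matches to the promoter motifs spelled out further below in capitals, on either strand. The pair Hist1h2ae/Hist1h2bg lay inside a listed site, and the others had no site. All are given on the plus strand of mm10, between the annotated 5′ ends of the genes, at chr13:23571221-23571395, chr13:21810198-21810464 and chr13:21833508-21833742.

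Hist1h2ae/Hist1h2bg: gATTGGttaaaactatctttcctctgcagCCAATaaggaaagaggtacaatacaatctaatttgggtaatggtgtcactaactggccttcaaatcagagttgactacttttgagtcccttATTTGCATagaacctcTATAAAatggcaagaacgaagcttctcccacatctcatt
Hist1h2bq/Hist1h2ao: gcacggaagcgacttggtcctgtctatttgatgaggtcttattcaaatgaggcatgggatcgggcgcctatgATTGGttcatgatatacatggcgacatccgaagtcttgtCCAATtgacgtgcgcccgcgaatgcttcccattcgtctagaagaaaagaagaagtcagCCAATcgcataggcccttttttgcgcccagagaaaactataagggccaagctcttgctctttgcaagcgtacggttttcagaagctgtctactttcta
Hist1h2ap/Hist1h2br: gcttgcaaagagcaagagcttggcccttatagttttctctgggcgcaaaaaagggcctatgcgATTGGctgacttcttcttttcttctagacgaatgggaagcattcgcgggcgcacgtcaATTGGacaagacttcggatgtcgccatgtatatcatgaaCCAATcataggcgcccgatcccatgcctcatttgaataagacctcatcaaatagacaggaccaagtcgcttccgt

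The 235 bases between Hist1h2ap and Hist1h2br, read on the opposite strand, were contained letter for letter in the 267 bases between Hist1h2bq and Hist1h2ao. For the other arrangement, a gene that does not share its promoter, the 150 bases before the annotated 5′ end are given on the strand of the gene for an H4 gene with a site, an H1 gene with a site and the testis H1 gene without one. They lie at chr13:23698455-23698604 (minus strand), chr13:23738658-23738807 (plus strand) and chr13:23695664-23695813 (plus strand).

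Hist1h4c: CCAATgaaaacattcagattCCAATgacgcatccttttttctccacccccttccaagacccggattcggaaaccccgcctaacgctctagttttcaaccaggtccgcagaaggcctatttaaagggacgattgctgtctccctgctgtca
Hist1h1c: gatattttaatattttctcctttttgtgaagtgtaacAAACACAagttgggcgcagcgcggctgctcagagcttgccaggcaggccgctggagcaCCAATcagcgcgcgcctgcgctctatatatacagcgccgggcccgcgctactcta
Hist1h1t: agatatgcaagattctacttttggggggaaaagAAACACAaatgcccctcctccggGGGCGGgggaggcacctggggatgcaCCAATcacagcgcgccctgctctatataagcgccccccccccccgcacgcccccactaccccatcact

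A listed site came within 1 kb of a start site of 59 of the 67 members (88.1%, 95% Wilson interval 78.2 to 93.8), where the share over all protein-coding genes was 70.8% (15530 genes). The share over all protein-coding genes counts every gene with no site in the rows used here, also genes far from any listed site. The number of such genes is not given here. The interval covers counting error only, and genes of a cluster are not independent of each other. All 12 H3 and all 13 H4 genes had a site, as had 15 of 18 H2A, 15 of 18 H2B and 4 of 6 H1 genes. The 8 members without one were Hist1h2bq, Hist1h2br, Hist1h2ao, Hist1h2ap, Hist1h1d, Hist1h1t, Hist1h2ba and Hist1h2aa, and they fall into 3 kinds that are described in turn below.

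Hist1h1d, a somatic linker histone gene, lacked a site only by its annotation. Its 5′ end at chr13:23553262 lies 1828 bp before its coding sequence, and a site of 1879 bp at chr13:23554749-23556627 held the whole coding sequence and the stem-loop. With RefSeq transcript starts in place of those of GENCODE, 60 of 67 members had a site within 1 kb, and the 7 others were the members named above without Hist1h1d. The reverse case was Hist1h2be, whose annotated 5′ end lies 35168 bp from its coding sequence at the Hist1h1e site, while a separate site of 2123 bp, chr13:23584402-23586524, spanned the coding sequence. For 11 members the annotated 5′ end is the first base of the coding sequence itself, so positions below are counted from the coding start unless stated otherwise.

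The coding start itself lay inside a site in 58 of 67 members (86.6%), where this was so for 9267 of the 21938 protein-coding genes (42.2%). The coding start lies a median of 33 bp from the annotated 5′ end in members and 405 bp in all protein-coding genes, of which 58.5% had a site over the 5′ end. H4 genes were covered at the coding start in 13 of 13 cases.

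**Figure D1:**
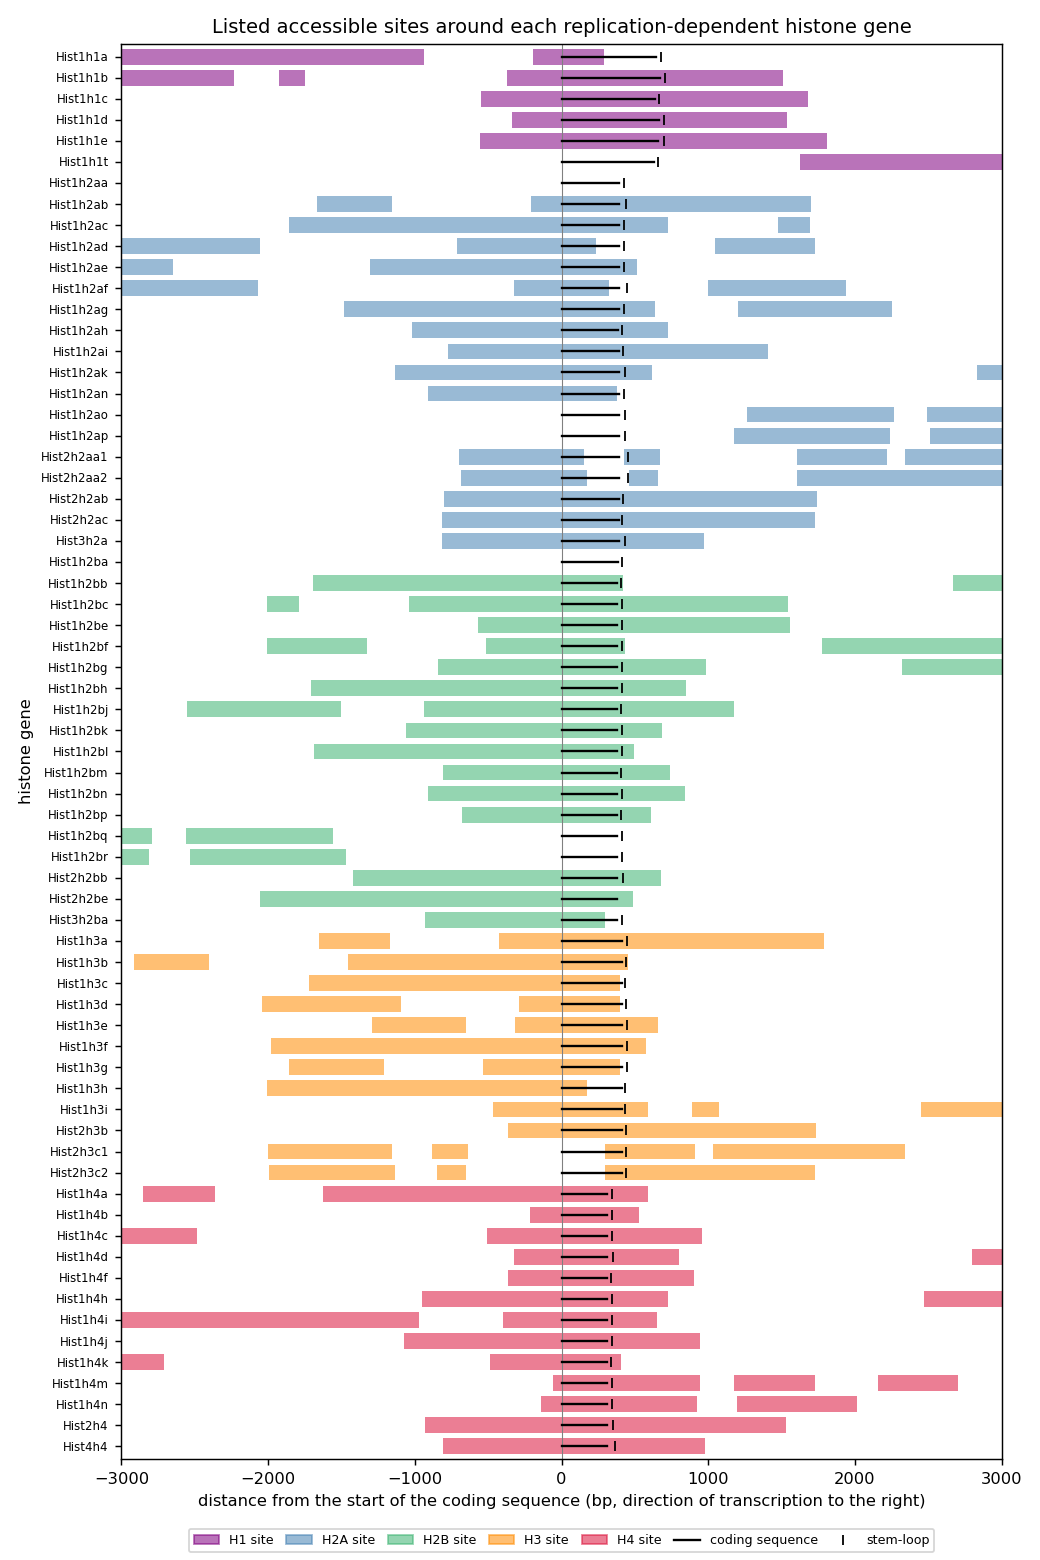
Listed accessible sites (colored bars, by histone type) within 3000 bp of the coding start of each of the 67 members, with distance in bp on the horizontal axis and transcription to the right. Black lines are coding sequences and ticks are stem-loops. In 47 members 1 bar spans the whole coding sequence, and around Hist1h2bq, Hist1h2br, Hist1h2ao, Hist1h2ap, Hist1h1t, Hist1h2ba and Hist1h2aa no bar reaches it.

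The members formed 6 groups when neighbors on a chromosome were joined at up to 200 kb between gene starts. The Hist1 cluster on chromosome 13 split into 3 blocks, with 18 members in 121.8 kb from 21715763 to 21837530, 5 members in 8.51 kb from 22035164 to 22043676, and 31 members in 403.8 kb from 23531050 to 23934851. The Hist2 cluster on chromosome 3 had 10 members in 50.3 kb, from 96219865 to 96270132, and the Hist3 cluster on chromosome 11 had 2 members in 7.91 kb. Hist4h4 stood alone on chromosome 6.

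By group, a site within 1 kb was listed for 14 of 18 members in the first Hist1 block, 5 of 5 in the second and 27 of 31 in the third. It was listed for 10 of 10 Hist2 members, for Hist3h2a and Hist3h2ba, and for Hist4h4, an H4 gene whose site of 1783 bp reached from 806 bp before to 976 bp after the coding start. The 6 groups held 10.9 to 35.2 sites per 100 kb, against 5.64 over all chromosomes. Their bounds run from the first to the last member gene, so a small group with any site is dense by construction. Hist4h4, 1 gene with 1 site in 2.86 kb, is an example. Sites filled 14.0%, 45.1% and 11.4% of the 3 Hist1 blocks and 28.1% of Hist2, against 4.06% of all chromosomes, which is read beside the number of genes packed into each.

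**Figure D2:**
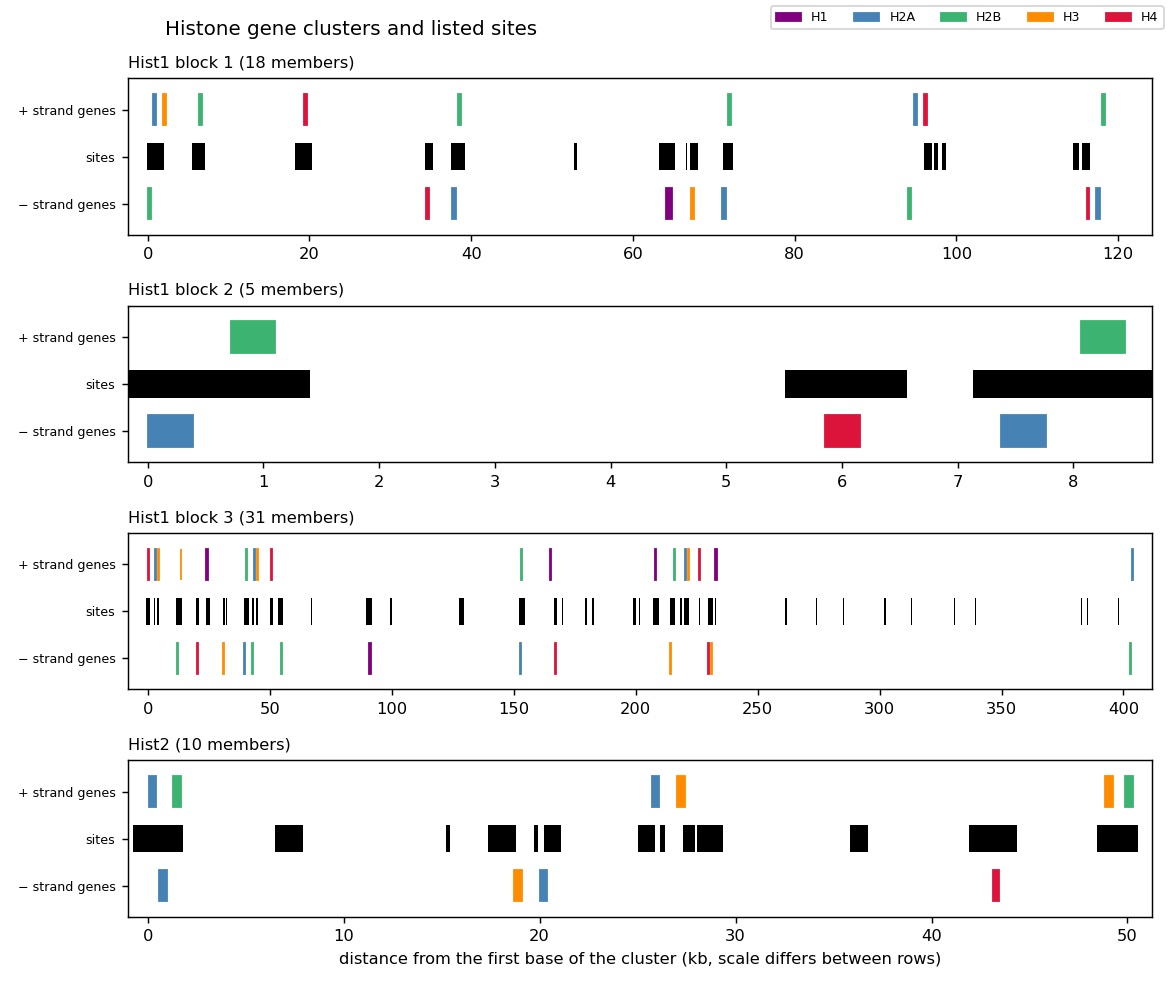
The 4 groups with more than 2 members, drawn by distance in kb from the first base of each group, with the scale differing between rows. Black boxes are listed sites, and colored boxes above and below are coding sequences on the plus and minus strand by histone type. In the third Hist1 block sites and genes thin out after about 233 kb, where Trim38 and the Slc17a genes lie, before the pair Hist1h2ba and Hist1h2aa at the far end.

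Sites were shared between members. Of the 46 sites, 19 lay within 1 kb of the start sites of 2 or more members, and 38 of 67 members were at such a site. There were 12 head-to-head pairs with coding starts at most 1 kb apart, and each of the 12 joined an H2A gene to an H2B gene, which dimerize in the nucleosome. Their coding starts were 278 to 334 bp apart (median 299).

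In 9 of the 12 pairs a single site spanned both coding starts, and in 7 it held both coding sequences. The pairs without any site were Hist1h2bq/Hist1h2ao, Hist1h2ap/Hist1h2br and Hist1h2ba/Hist1h2aa. Counted by annotated 5′ ends, 10 of 13 head-to-head pairs of members (76.9%, interval 49.7 to 91.8) were spanned by 1 site, the further pair being Hist1h2bh/Hist1h3f, and so were 657 of 719 head-to-head pairs of other protein-coding genes (91.4%). The interval for the 13 histone pairs includes the share of the other pairs, but it assumes independent pairs. Hist1h2bq/Hist1h2ao and Hist1h2ap/Hist1h2br, neither of them spanned, are near-identical copies described below. No likeness or difference between these shares is therefore read.

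The site of Hist1h2ac and Hist1h2bc was the widest at a member, 2585 bp at chr13:23683190-23685774. It was followed by 2553 bp at Hist1h2bh and Hist1h3f, chr13:23542507-23545059, and 2543 bp at Hist2h2ab, Hist2h2ac and Hist2h2be, chr3:96219114-96221656. The last is also among the 4 sites within 1 kb of 3 members. The others were chr13:21715649-21717830 (2182 bp at Hist1h2bl, Hist1h2ai and Hist1h3h), chr13:22042293-22044408 (2116 bp at Hist1h4i, Hist1h2ag and Hist1h2bj) and chr13:23760566-23762781 (2216 bp at Hist1h4a, Hist1h3a and Hist1h1a).

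The median width of the 46 member sites was 1358.5 bp (quartiles 906.5 and 1990.5), against 1180.5 bp (688.2 and 1571) for the 20938 sites within 1 kb of any protein-coding start. At members 12 of 46 sites (26.1%, interval 15.6 to 40.3) measured at least 2000 bp, and at protein-coding starts 9.31% did. Widths are given next by the number of genes with a start within 1 kb of the site. A wider site comes within 1 kb of more starts by construction, so these medians do not explain the width. Sites at 1 member had a median of 1064 bp, those at 2 members 1751 bp and those at 3 members 2199 bp, where sites at 1, 2 and 3 or more protein-coding genes had medians of 1143, 1487.5 and 1500 bp. At sites near a single gene the medians for members and for all genes were thus close.

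The narrowest sites lay beside, not over, a coding start. They were 184 bp at chr13:21782300-21782483, downstream of Hist1h3i, whose main site was 1055 bp, and 198 bp and 246 bp in the Hist2 cluster. The Hist2 sites overlapped the 3′ ends of Hist2h2aa2 and Hist2h2aa1, on the sides that face Hist2h3c2 and Hist2h3c1. Where a site did cover the coding start, its width ran from 488 bp, at Hist1h1a, upwards.

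**Figure D3:**
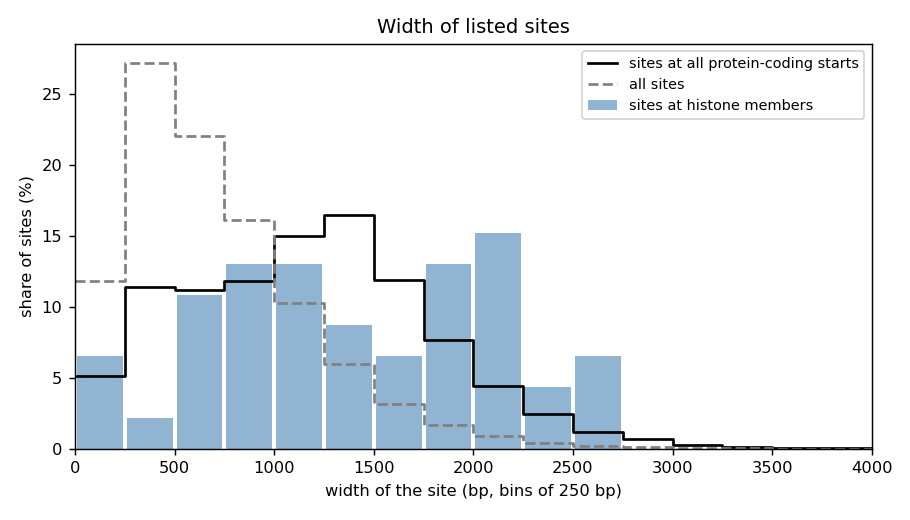
Width of sites in bins of 250 bp (horizontal axis, bp) as a share of sites (vertical axis, %), for the 46 sites at histone members (bars), the 20938 sites at protein-coding starts (solid line) and all 153682 sites (dashed line). Each bin from 500 to 2249 bp holds 3 to 7 member sites, too few to tell groups of widths apart.

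Member sites covered whole genes. The entire coding sequence lay inside a single site in 47 of 67 members, and in 46 of the 59 that had a site within 1 kb (78.0%, interval 65.9 to 86.7). Short genes fit into a site more easily, so 930 other protein-coding genes with 1 coding exon of at most 700 bp were set beside them. Of these, 395 had a site within 1 kb, and in 141 (35.7%, interval 31.1 to 40.5) it held the coding sequence. Their coding sequences had a median of 459 bp, against 387 bp for members with a site, so that the match in length was not exact. Distance from the 5′ end to the coding start was not matched. Its median was 33 bp in members and 405 bp over all protein-coding genes, so the shares are not compared on equal terms. The stem-loop lay inside a site in 47 of the 66 members in which it was found.

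Where a site covered the coding start, it ended a median of 291 bp beyond the stem-loop (range -398 to 1324, a negative value being an end before it, 57 members), and it passed the end of the stem-loop in 44 of 57. From the annotated 5′ end, member sites reached a median of 763 bp upstream and 687 bp downstream, against 501 and 851 bp over all 15530 protein-coding genes with a site. Members thus had the longer upstream reach, which for a head-to-head gene includes its partner.

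The histone types differed in their reach. H1 genes, which have the longest coding sequence (median 648 bp), had a median reach of 1537 bp downstream of the coding start and 369 bp upstream. The longest in this type was Hist1h1e, at 1807 bp. Hist1h1a stood apart, with a site of 488 bp that covered 45.9% of its coding sequence and ended 398 bp before the end of the stem-loop.

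H4 genes, the shortest (median 309 bp), were wholly inside a site in 13 of 13 cases, stem-loop included, with a median of 491 bp upstream and 902 bp downstream. Hist2h4 had the longest downstream reach of an H4 gene, at 1529 bp. H2A and H2B genes reached further upstream, by medians of 812 and 937 bp, and 634 and 683 bp downstream. Hist2h2ab and Hist1h2be had the longest downstream reach of these types, at 1740 and 1554 bp.

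In H3 genes the coding sequence was wholly inside a site in 6 of 12 and the stem-loop in 7 of 12, close to the 10 and 11 of 18 of H2A genes. The median site ended 55.5 bp beyond the stem-loop, against 550 bp for H4. Hist1h3h ended furthest before it, by 280 bp, with 42.2% of its coding sequence covered, while the site of Hist1h3a reached 1787 bp downstream. A further site or the far end of a shared site lay upstream of most H3 genes: at 1250 bp before the coding start 83.3% of H3 genes were covered, against 15.4% to 27.8% of the other types, a position that was chosen after the values were seen. With 6 to 18 genes in a type, and genes of 1 cluster sharing sites, these differences between types were not tested. The types also differed in the share of sequence windows around the starts that are unique in the genome, which is described below. Its median was 100% in H1 and 89.96% in H4 genes. It was 70% in H2A, 70.52% in H2B and 77.74% in H3 genes. The part of unique sequence in the differences of reach and coverage was not tested, so these are not read as traits of the types.

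**Figure D4:**
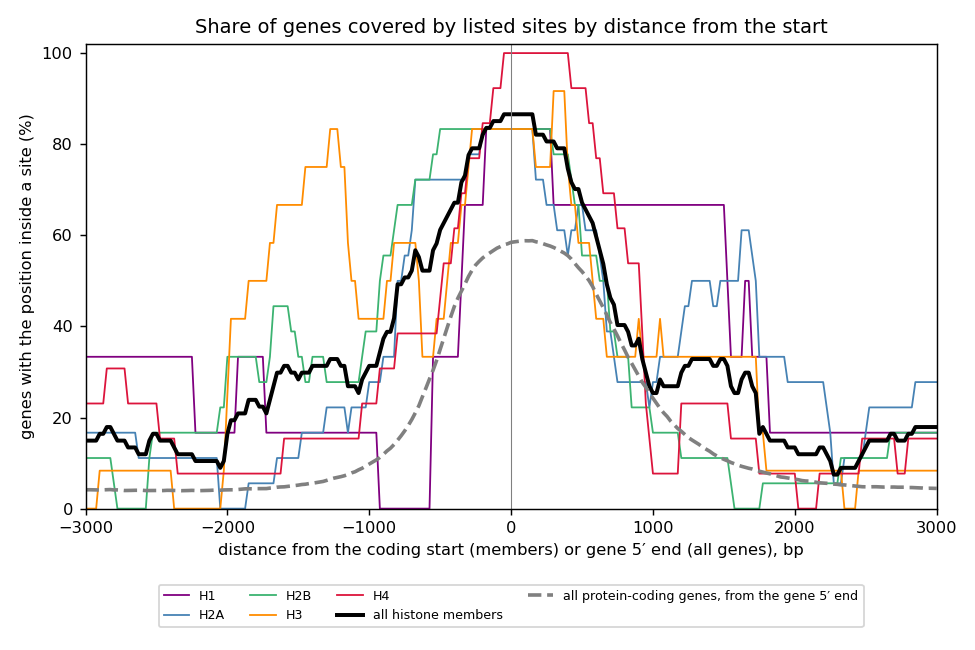
Share of genes (vertical axis, %) whose sequence at a given distance in bp from the coding start lies inside a listed site, for all 67 members (black) and by type (colors), with all 21938 protein-coding genes around the gene 5′ end (dashed). Members peak at 86.6% and all genes at 58.8%, the H1 line stays at 66.7% to 1500 bp downstream, and the H3 line has a second maximum of 83.3% at 1250 bp upstream.

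Among the members without a site, 3 belong to the testis. Hist1h1t encodes the linker histone of spermatocytes, and Hist1h2ba and Hist1h2aa the testis forms of H2B and H2A. No site was listed within 1 kb of any of these 3 genes in the fibroblasts. The nearest site lay 1678 bp from the 5′ end of Hist1h1t, and it was that of the neighboring Hist1h4c, 1463 bp wide. For Hist1h2ba and Hist1h2aa the nearest site was 5100 and 5406 bp away. Sequence around all of these starts was close to unique, with 100%, 92.9% and 92.9% of the 50-base windows within 1 kb found at a single place in the genome.

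Markers of the cell type were checked in the same way. All 8 fibroblast markers had a site, the widest being 2865 bp at Pdgfrb, a receptor of mesenchymal cells. Of 9 markers of other cells 5 had one, the widest being 1500 bp at Epcam. Those without were the leukocyte and T cell genes Ptprc and Cd3e and the germ cell genes Ddx4 and Sycp3.

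The remaining 4 members without a site were Hist1h2bq, Hist1h2ao, Hist1h2ap and Hist1h2br, 2 head-to-head pairs in the first Hist1 block. They lie in the arms of an inverted repeat, chr13:21801200-21812264 and chr13:21831678-21842742, which compared without gaps over 11065 bp differed at 19 positions (99.8% identity). None of the 50-base windows within 1 kb of these 4 starts was found at a single place in the genome. The same held with windows of 36 and of 100 bases.

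The H4 genes Hist1h4m and Hist1h4n sit at the inner ends of these compared arms, where 7.02% and 8.04% of windows were unique, and both had a site. The sites began 56 and 141 bp before the coding start and ran 947 and 922 bp downstream, past the ends of the compared arms. Windows inside these sites were also mostly repeated, with 14.35% and 15.47% unique. Apart from the 537 and 622 bp of these sites that fall in the arms, no part of either arm was listed.

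A like picture was seen in the Hist2 cluster, where Hist2h3c2 and Hist2h2aa2 mirror Hist2h2aa1 and Hist2h3c1. Over 961 bp that could be compared without gaps the arms differed at 29 positions. Here the sites were broken up in the same way on both sides. The H2A genes had a site over the coding start that ended after 173 and 152 bp, and both H3 genes were uncovered from before the coding start to 297 bp inside it, where a site began. The coding sequences of all 4 genes held no unique 50-base window, and 21.5% to 45.6% of windows within 1 kb of their starts were unique.

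Over all members, a median of 80.7% of windows was unique, and 49 of 67 members had under 90% unique windows, which was so for 13.3% of protein-coding genes. Of all protein-coding genes, 311 had no unique window within 1 kb, and a site was listed at 3 of them (0.965%). The study's methods say that unusable reads were filtered following ENCODE. They do not state how reads that match more than 1 place were treated. The part of such reads in these missing and broken sites was not tested. The list can therefore not tell whether the 4 genes were accessible. For 12 members the coding sequence held no unique window, and 6 of these had a site over the coding start.

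**Figure D5:**
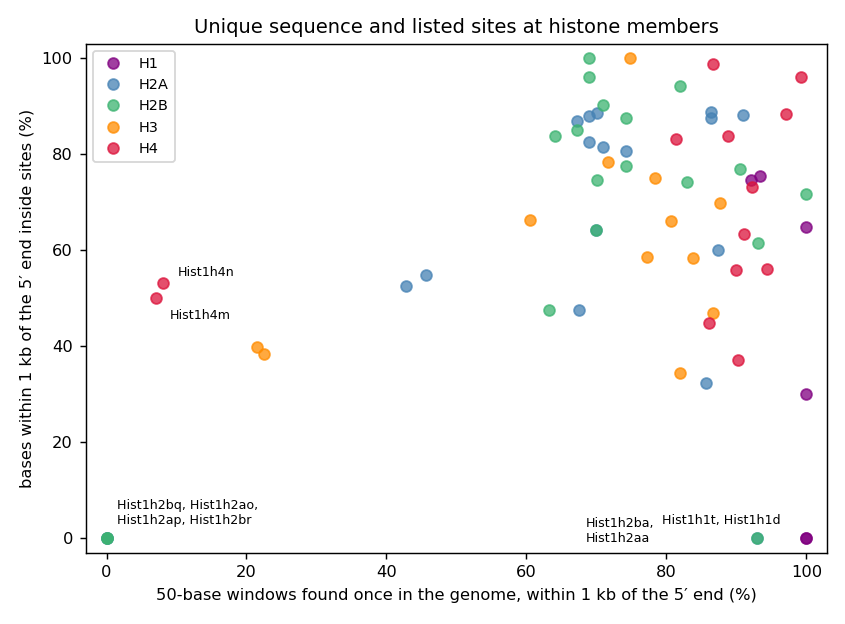
Share of the bases within 1 kb of the annotated 5′ end that lie inside sites (vertical axis, %) against the share of 50-base windows there that occur once in the genome (horizontal axis, %), 1 point per member, colored by histone type. Hist1h2bq, Hist1h2ao, Hist1h2ap and Hist1h2br overlie each other at 0 on both axes, while Hist1h1t, Hist1h1d, Hist1h2ba and Hist1h2aa lie at 0 on the vertical axis with over 92% unique windows.

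Promoter motifs were searched on both strands from 250 bases before to 50 after the annotated 5′ end, by exact letters. CCAAT was present in 56 of 67 members (83.6%, interval 72.9 to 90.6), against 39.0% of all protein-coding promoters of the same length, and in all 18 H2A and 18 H2B but only 4 of 13 H4 genes. TATAAA was present in 37 members (55.2%) against 12.6%. The octamer ATTTGCAT was present in 15 members (22.4%) against 1.57%, and these were 7 H2A and 8 H2B genes. Because both strands were searched, a string in the region shared by a head-to-head pair can be counted for both of its genes. Of the 12 pairs of an H2A and an H2B gene, 5 held the octamer and all 12 held CCAAT between their coding starts. The counts over members, and their intervals, are thus counts of genes and not of separate strings or independent promoters.

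AAACACA, the H1 box, was found in 4 of 6 H1 genes and in 5 of the 61 other members, against 6.40% of all promoters. GGGCGG was found in 10 of 13 H4 genes and in 28 members in all (41.8%), close to the 43.0% of all promoters. In the 150 bases before the start, it was found in 26.9% of members and 35.0% of all promoters. TTTGGCGC or TTTCCCGC was found in 3 members (4.48%), all of them H4, which fell to 1 member (1.49%) with each other window or strand setting tried. ACGTCCG, letters searched for the H4 factor HINFP, was found in none of the 67. These strings were in 2.00% and 1.19% of all promoters. A match is a string of letters and not a bound site, and the absence of a string says nothing on the factor.

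Between the coding starts all 12 head-to-head pairs held 2 to 5 CCAAT strings, 8 held TATAAA and 5 held the octamer. Hist1h2ba/Hist1h2aa, the testis pair without a site, held 4 CCAAT, 2 TATAAA and 1 octamer. The 2 pairs of the inverted repeat each held 3 CCAAT and neither of the others. Member promoters with a site had a median GC content of 45.0%, lower than the 55.0% of all protein-coding promoters, and a higher ratio of observed to expected CpG, 0.75 against 0.52. For the 7 members without a site at the start or the coding sequence the medians were 49.3% and 0.90.

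Between the members, inside the bounds of the groups, 32 further sites were listed, with a median width of 569 bp. Of these, 2 were the sites over the coding sequences of Hist1h1d and Hist1h2be, 7 lay within 1 kb of the start of a gene that is no member, among them Hfe, Slc17a1 and Slc17a4, and 23 lay at neither. The widest of the last kind was 1736 bp, chr13:23658806-23660541. All 3 histone pseudogenes with such symbols, Hist1h2aj, Hist1h2al and Hist3h2bb-ps, had a site within 1 kb, those of Hist1h2aj and Hist3h2bb-ps being the sites of Hist1h2bm and Hist3h2a.

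The genes that make, carry and replace these histones were looked up as well. Of 27 genes of histone mRNA production, such as Npat, Slbp, Hinfp and Lsm11, 26 had a site within 1 kb, which is all of those that could be assessed, with a median of 1577 bp for the widest site of each gene. The largest was 2882 bp at Pou2f1, which encodes OCT1. The remaining gene, Nfya, lay 477796 bp from the nearest site in the rows used here, which hold no site of any gene around it, and was not analysed here. All 23 histone chaperone genes had a site, with a median of 1594 bp and the widest, 2269 bp, at Hira, a chaperone of H3.3.

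Of 15 replication-independent variants 13 had a site, with a median of 1501 bp and the widest, 2375 bp, at H1fx. Those without were H2afb1 and H1fnt, both variants of the male germ line. Other germ line variants had a site within 1 kb, Hils1 of spermatids one of 276 bp and H1foo of oocytes one of 1433 bp. The site of H1foo lay 55 bp from its 5′ end, and neither site covered the coding start. The nearest site was 38092 bp from H1fnt and 2456188 bp from H2afb1, so that around H2afb1 the rows used here hold no site of any gene and its lack of a site is not read as a trait of the gene. With H2afb1 and Nfya counted as genes without a site, the 3 lists ran from 86.7% to 100% against 70.8% of all protein-coding genes. The lower end depends on H2afb1. Whether the 59 of 67 replication-dependent members lay inside the range of these lists is therefore not read.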

How the data were processed

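ATAC-seq libraries of 10 samples in 5 groups were processed by the authors, who per the study's methods used Trim Galore for trimming, BWA with mm10 for alignment and SAMtools for filtering after ENCODE guidelines, then merged replicates and called narrow peaks with MACS2. Per the submitters' processing notes deepTools and DESeq2 were also used. Versions, thresholds and the way peaks of the conditions were joined are not given in the sources used here. The labels' extraction text describes cross-linking for chromatin immunoprecipitation, whereas the study's methods describe Tn5 treatment, which was followed here. The deposited table, another kind of value than a count, score or signal, holds the chromosome, start and end of 153924 sites, and 242 sites on other sequences were left out. No value per library was at hand, so the tests planned for counts were not run.

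Starts were read as counted from 0 and are given here from 1. Sites were matched to all transcript starts of GENCODE vM21 within 1 kb (overlap of at least 1 bp), with the GRCm38.p6 sequence of RefSeq for motifs, stem-loops (stem GGYYCT, 4-base loop, at most 1 mismatch) and windows occurring once on the chromosomes in either strand. All 67 members were matched to a RefSeq gene. Shares have 95% Wilson intervals and medians intervals from order statistics. Searches were tested on planted sites, motifs and stem-loops. Intervals came from SciPy 1.17.1, window counts from Numba 0.67.0, plots from Matplotlib 3.10.9, all under Python 3.11.15 with NumPy 2.4.6.

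The members and gene lists were chosen with earlier results of these data known. Genes named were all members without a site, those at the 3 widest and 3 narrowest sites and at the sites near most members (4, by a tie at 3 members), per type the member with the longest downstream reach, lone members, testis members and, from other lists, genes without a site and the widest site. Alternatives concerned the window, the start sites, site width, merging, motif window and strand, and window length. Those that used the coding start, or scaffolds and patches, were added after the data were seen.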

Additional observations from a re-analysis of the deposited data

How the results depend on the processing

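No paired analysis was possible because only pooled positions are listed and no result comes from a test. Leaving out a replicate, and edgeR or DESeq2, could not be run for the same reason. Of 139 alternative values for 31 results, 120 stayed within the 95% interval of the reported value (or, for the count of sites between members, within 1.5 times), and 19 moved out of it. A window of 3 kb, which reaches the sites of neighbors, raised the share of members with a site to 97.01%, of H1 genes to 100%, of H2A and of H2B genes to 94.4% each, and of the first Hist1 block to 100%. A site over the coding start in place of one within 1 kb of a start lowered the shares of variants, mRNA production genes and chaperones to 60.0%, 59.3% and 78.3%. Counting each member once with its widest site gave a median width of 1825 bp, since shared sites then count more than once. For the motifs, the share over all protein-coding promoters at the same setting follows in brackets. In the 150 bases before the start, TATAAA was found in 40.3% of members (7.19%), E2F strings in 1.49% (0.998%) and GGGCGG in 26.9% (35.0%). On the strand of the gene only, ATTTGCAT was found in 11.9% (0.798%), E2F strings in 1.49% (1.07%) and GGGCGG in 26.9% (27.3%). In the 300 bases before the coding start, E2F strings were found in 1.49% (1.6%) and GGGCGG in 26.9% (33.1%). The median share of unique windows at members with a site was 87.7% with windows of 100 bases and 25.0% over the coding sequence alone. Depth and the height of sites are unknown, so a missing site cannot be told from a weak one.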
